A study of Mus musculus with 20 samples.

Results

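The genes of glucose uptake and glycolysis were followed in the hippocampus of aged hAPOE3 and hAPOE4 mice. The group was fixed by name: 4 glucose transporters, the isoenzymes of each glycolytic step, the enzymes that set fructose bisphosphate levels, the lactate dehydrogenases, and the regulators Hif1a and Txnip. It holds 30 genes, all of which were found among the 33119 genes of the count table and passed the filter on low counts that left 21724 genes.

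Hippocampal RNA came from 20 mice aged 16 months on a C57BL/6 background, homozygous for a targeted replacement of Apoe by human APOE3 or APOE4. There were 5 mice in each group: males with hAPOE3 (S154 to S158) or hAPOE4 (S174 to S178), and females with hAPOE3 (S144 to S148) or hAPOE4 (S164 to S168). Group values below follow this order, hAPOE3 then hAPOE4 males, and hAPOE3 then hAPOE4 females. No mouse with unreplaced Apoe was included, so each genotype comparison is between 2 human alleles. Counts per mouse ran from 35778879 to 52520279. Reads were assigned to mouse transcripts, and those counted for mouse Apoe averaged 65.5, 78.7, 53.3 and 63.2 CPM (counts per 1000000) in the groups in that order, which does not tell the human alleles apart. The hippocampal genes Slc17a7, Prox1 and Neurod6 were present in all 20 libraries, with at least 559, 48.5 and 61.6 CPM. Summed levels of 12 choroid plexus markers ran from 282 to 9572 CPM between mice, and those of 8 oligodendrocyte markers from 4217 to 13424 CPM, each within single groups as well as between them. Group medians of the choroid plexus sum were 328 and 416 CPM in males but 3293 and 6831 CPM in females. The comparisons of females and males below thus also differ in choroid plexus content. So, in its median, does the comparison of the genotypes in females. In tissue RNA, fewer cells of a type and less RNA per cell cannot be told apart.

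Glucose enters the brain across the endothelium and reaches astrocytes mainly through GLUT1 (Slc2a1) and neurons mainly through GLUT3 (Slc2a3). Hexokinase traps it, phosphofructokinase commits it to glycolysis, and the lower enzymes turn it into pyruvate, which lactate dehydrogenase interconverts with lactate. Neurons and glia share the pathway but favour different isoenzymes, and astrocytes are known for exporting lactate.

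Levels within the pathway can be set side by side only per length. Per kilobase of the gene's merged exons, over all 20 mice, Aldoa (an aldolase that splits fructose bisphosphate) stood at 369 ± 52.9 CPM (SD, n = 20) and Gapdh (which oxidises glyceraldehyde phosphate) at 364 ± 64.1, which do not differ beyond their spread. Ldhb followed at 231 ± 50.4, Pkm (pyruvate kinase) at 209 ± 27.1, Aldoc (the aldolase of astrocytes) at 205 ± 32.8 and Pgam1 (phosphoglycerate mutase) at 199 ± 24.9 CPM per kilobase. These 4 neighbours also overlapped in spread. At the low end were Hk2, the inducible hexokinase, at 1.23 ± 0.151 and Slc2a4, the insulin-responsive transporter GLUT4, at 0.419 ± 0.219 CPM per kilobase. With the longest annotated transcript as the length, Aldoa and Gapdh remained first and second, while Eno1 moved from rank 10 to rank 4 and Ldhb from 3 to 6.

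Across the 4 groups, none of the 30 members passed an adjusted p of 0.05 with edgeR's quasi-likelihood test in any of 7 comparisons. These were hAPOE4 against hAPOE3 in each sex, females against males in each genotype, both contrasts averaged, and their interaction. They share groups of mice and are not independent of each other. DESeq2's Wald test on the same counts called 1 member, Pfkm, in the averaged genotype comparison, where it called 5% of all genes. Most members were bounded closely: in each of the 4 single comparisons the 95% interval of 26 of 30 members lay inside a 1.5-fold change in either direction, and the median half-width was 0.25 on the log2 scale.

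For hAPOE4 against hAPOE3 males, 0.621% of all genes tested were called, and 9.06% had an unadjusted p under 0.05. Of the members, 2 reached that unadjusted level, both higher in hAPOE4 males. Fold changes were positive for 14 and negative for 16 members, and their median was -0.02 (log2) against 0.00 for all genes. In females 0.667% of all genes were called for genotype and 10.1% had an unadjusted p under 0.05, and 3 members did, all higher in hAPOE4 females. There 24 members had positive and 6 negative fold changes, with a median of 0.10 against 0.00 for all genes. With the mean deviation of the choroid plexus markers as a covariate, 23 were positive and 7 negative, with a median of 0.10. Averaged over the sexes, 2.45% of genes were called and 17.9% passed unadjusted, beside 5 members, 4 higher and 1 lower in hAPOE4 mice. In each genotype comparison the members' share at the unadjusted level was at or under that of all genes.

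Between females and males of the hAPOE3 genotype, 0.0414% of genes were called and 5.22% had an unadjusted p under 0.05. Of the members 2 did, both lower in females, and 23 of 30 had negative fold changes with a median of -0.12 against 0.00 for all genes. In hAPOE4 mice 0.437% of genes were called between the sexes and 5.8% passed unadjusted, against 0 members. Averaged over the genotypes, these were 0.129% and 10% of genes and 3 members, all lower in females. The mean deviation of the choroid plexus markers (choroid plexus score) was also added to this comparison as a covariate. Then 19 members were negative and 11 positive, with a median of -0.11 against 0.00 for all genes. Without the covariate 20 were negative and 10 positive, with a median of -0.08. With it 0 members were called, and 88 of the 21724 genes tested. At an unadjusted p under 0.05 in that edgeR fit were 8 members, against 3 without the covariate. They were Slc2a1, Slc2a4, Slc2a8, Aldoc, Bpgm, Pkm and Ldhb, lower in females, and Pfkfb2, higher. The share of all genes at that level was not counted for this fit, so the 8 cannot be set against it. The interaction of sex and genotype was called for 0.184% of genes, with 2.54% unadjusted and 0 members at either level. Its fold changes were positive for 27 of 30 members, with a median of 0.10 against 0.00 for all genes, and each member's 95% interval covered 0. Members varied together between mice, so the signs counted here and above are not independent. Without hAPOE3 mice S147, S148, S156, S157 and S158, described further on, 18 were positive and 12 negative, with a median of 0.03. With the balance of short and long transcripts as a covariate 21 were positive and 9 negative, with a median of 0.07. Without those 5 mice, 20 members were negative for sex in hAPOE3 mice, with a median of -0.04.

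**Figure D1:**
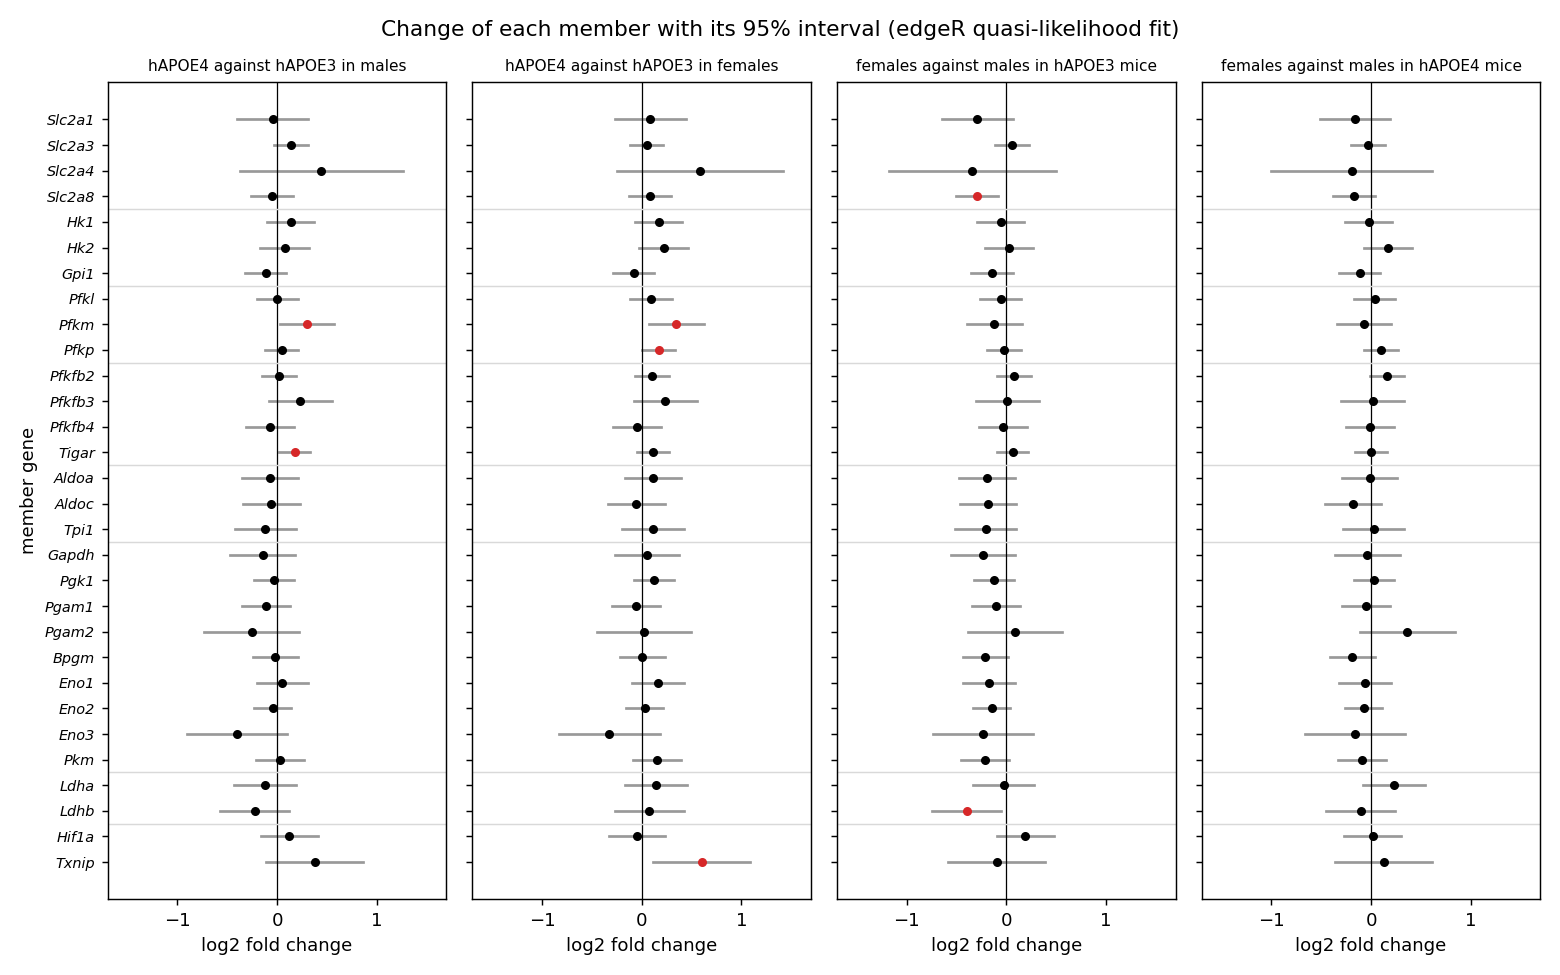
Log2 fold change (horizontal axis) of each of the 30 members (rows, in pathway order, with grey lines between roles) in the 4 single comparisons. Bars are 95% intervals of the edgeR quasi-likelihood fit with 5 mice per group, and red points have an unadjusted p under 0.05: 2 members for genotype in males, 3 in females, 2 for sex in hAPOE3 mice and 0 in hAPOE4 mice.

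Among the transporters, Slc2a8 (GLUT8, a transporter of intracellular membranes, on chromosome 2 from 32972990 to 32982083 in GRCm38) had the smallest p of any member for sex. Its level was 16.9, 19.1, 18.5, 20.8 and 21.2 CPM in hAPOE3 males S154 to S158, and 15.1, 14.4, 15.8, 18.6 and 14.5 CPM in hAPOE3 females S144 to S148. It was 16.9, 17.7, 19.6, 17.2 and 21.8 CPM in hAPOE4 males S174 to S178, and 18.5, 16.1, 14.4, 15.7 and 18.3 CPM in hAPOE4 females S164 to S168. Females tended to the lower values in both genotypes, but the groups overlapped. Females minus males, averaged over the genotypes, the log2 fold change of Slc2a8 was -0.23 (SE 0.07, edgeR adjusted p = 0.279). With the choroid plexus score as a covariate it was -0.26 (SE 0.08, edgeR adjusted p = 0.115).

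Slc2a1 averaged 114 ± 26.9 CPM (SD, n = 5) and 110 ± 24.4 CPM in hAPOE3 and hAPOE4 males, and 92.9 ± 13.2 and 98.5 ± 19.3 CPM in the corresponding females. Slc2a3 varied less between mice, with 124 ± 8.66, 137 ± 15.8, 129 ± 6.15 and 134 ± 8.30 CPM in the same order. For neither transporter did a comparison reach an unadjusted p under 0.05 with edgeR in the fit without covariates. With the choroid plexus score as a covariate, Slc2a1 differed by -0.30 (log2, SE 0.13, edgeR adjusted p = 0.213) between females and males, averaged over the genotypes. Slc2a4 was between 0.672 and 2.03 CPM in 17 mice but 2.79 CPM in hAPOE3 male S158, 3.22 in hAPOE4 male S176 and 2.97 in hAPOE4 male S178. In S158 and S176 the oligodendrocyte markers were also at their highest, by 1.09 and 0.70 on the log2 scale above the mean of all mice, and in all 3 the neuronal markers at their lowest. The part of this in the Slc2a4 values was not tested.

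At the first steps, Hk1, the constitutive brain hexokinase, averaged 315 ± 56.1, 346 ± 26.5, 303 ± 39.3 and 340 ± 20.6 CPM in the 4 groups (SD, n = 5). Its genotype difference averaged over the sexes was 0.15 (log2, 95% interval -0.01 to 0.32). Hk2 was at 6.92 ± 1.19, 7.29 ± 0.407, 7.05 ± 0.866 and 8.21 ± 0.519 CPM in that order. Gpi1, which isomerises glucose 6-phosphate, differed by -0.10 between the genotypes (-0.24 to 0.05). Gpi1 lies 14.5 Mb, Ldha 27.1 Mb and Aldoa 107 Mb from Apoe on chromosome 7.

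The lead of all members for genotype was Pfkm, the muscle type subunit of phosphofructokinase, which is also made in neurons (chromosome 15, 98092589 to 98132451). It stood at 275, 266, 240, 232 and 258 CPM in hAPOE3 males S154 to S158, and at 316, 299, 353, 265 and 334 CPM in hAPOE4 males S174 to S178. In females it was 280, 271, 263, 199 and 157.1 CPM in hAPOE3 mice S144 to S148, and 269, 322, 295, 267 and 336 CPM in hAPOE4 mice S164 to S168. The hAPOE4 mice were mostly higher in both sexes, the groups overlapped within each sex, and the lowest values of all belonged to hAPOE3 females S147 and S148. The log2 fold change of hAPOE4 against hAPOE3 was 0.30 (SE 0.13, edgeR adjusted p = 0.493) in males, 0.35 (SE 0.13, adjusted p = 0.316) in females and 0.33 (SE 0.09, adjusted p = 0.0636) averaged over the sexes. DESeq2's Wald test gave the averaged difference an adjusted p of 0.0241, and edgeR without hAPOE3 female S144 gave 0.0356. Without the 5 hAPOE3 mice described further on (S147, S148, S156, S157 and S158) the edgeR value was 0.17 (SE 0.08, adjusted p = 0.294).

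The other subunits differed less. Pfkp, the platelet type, averaged 302 ± 17.9 CPM in hAPOE4 females against 268 ± 22.9 in hAPOE3 females (log2 0.17, 95% interval 0.00 to 0.34, edgeR adjusted p = 0.484), and differed by 0.05 (-0.12 to 0.21) between the male genotypes. Pfkl, the liver type, differed by 0.05 (-0.10 to 0.19) between genotypes averaged over the sexes. Group shares of the variance between mice were highest among the members for Pfkm, at 45.9%, and nearly equal for Slc2a8, at 45.8%. Tigar had 40.3%, the median member 19.7%, and the median of all genes was 17.6%.

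Phosphofructokinase is driven by fructose 2,6-bisphosphate, which the Pfkfb enzymes make and Tigar breaks down. Tigar was at 26.7, 28.0, 27.4, 25.2 and 24.7 CPM in hAPOE3 males and at 32.0, 30.1, 30.1, 26.6 and 30.1 CPM in hAPOE4 males, in the mouse order above. In females it was 26.9, 29.8, 24.6, 29.5 and 26.9 CPM with hAPOE3 and 26.6, 31.1, 32.0, 28.1 and 31.3 CPM with hAPOE4. Values were mostly higher in hAPOE4 males, where 4 of 5 mice lay above all hAPOE3 males, and overlapped widely in females. Averaged over the sexes the log2 difference was 0.14 (SE 0.05, edgeR adjusted p = 0.163).

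Pfkfb3, the form in which the kinase most outweighs the phosphatase activity, was at 41.6, 43.2, 37.7, 25.6 and 35.7 CPM in hAPOE3 males and 46.1, 42.4, 54.8, 41.0 and 31.3 CPM in hAPOE4 males. It was 41.7, 44.3, 41.1, 29.6 and 28.5 CPM in hAPOE3 females and 41.0, 41.6, 46.5, 45.3 and 43.6 CPM in hAPOE4 females. Low values fell in single mice, S157, S147 and S148 of the hAPOE3 genotype and S178 of hAPOE4, while the hAPOE4 females were close together. The averaged genotype difference was 0.23 (SE 0.11, edgeR adjusted p = 0.258) and was 0.03 without the 5 hAPOE3 mice. Pfkfb2 and Pfkfb4 differed by 0.06 (-0.06 to 0.18) and -0.06 (-0.23 to 0.11).

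**Figure D2:**
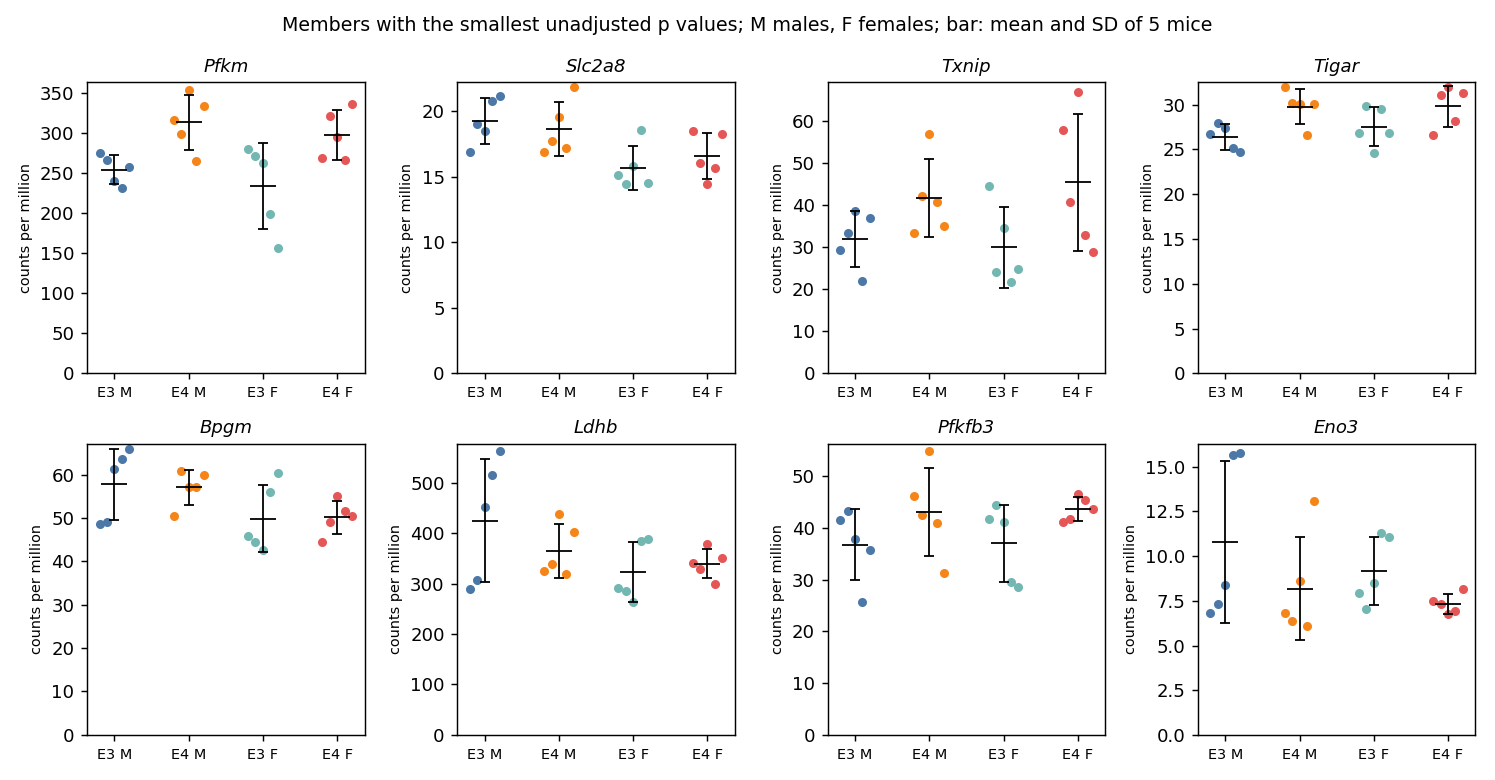
CPM (vertical axes, from 0) of the 8 members with the smallest unadjusted p over the 7 comparisons, in each mouse (points) with group mean and SD (bars, n = 5). E3 and E4 stand for hAPOE3 and hAPOE4, M and F for males and females. The groups overlap in every single comparison of these genes, and the lowest Pfkm values, 199 and 157.1 CPM, belong to 2 hAPOE3 females.

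Aldolases and triose phosphate isomerase showed no genotype difference beyond the spread of the mice when all 20 were fitted. Averaged over the sexes, the log2 difference of hAPOE4 against hAPOE3 was 0.02 for Aldoa (-0.18 to 0.22), -0.05 for Aldoc (-0.25 to 0.15) and 0.00 for Tpi1 (-0.22 to 0.22). Without the 5 hAPOE3 mice it was 0.24 (SE 0.08, edgeR adjusted p = 0.163) for Aldoa, 0.27 (SE 0.09, adjusted p = 0.174) for Tpi1 and 0.11 (SE 0.10) for Aldoc. Aldoa and Tpi1 lay above the mean of all mice in each of those 5, so leaving them out raises these differences. With the balance of short and long transcripts as a covariate the genotype difference was 0.13 for Aldoa and 0.14 for Tpi1 (edgeR adjusted p = 0.243 and 0.148). Gapdh, often taken as a reference gene, ranged from 1142 CPM in hAPOE3 female S146 to 2085 CPM in hAPOE3 male S156. Its group means were 1656 ± 376, 1497 ± 188, 1407 ± 287 and 1460 ± 176.6 CPM in the 4 groups (SD, n = 5), and the SD within hAPOE3 males exceeded every difference between group means. For Pgk1, the first enzyme of the pathway to yield ATP, the averaged genotype difference was 0.05 (-0.10 to 0.19), for Pgam1 -0.09 (-0.26 to 0.09) and for Pkm 0.09 (-0.08 to 0.26). Without the 5 hAPOE3 mice Pgk1 was at 0.16 and Pkm at 0.24. Several of these genes have processed pseudogenes in the mouse genome, so the split of near-identical reads is uncertain.

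Of the lower enzymes with an unadjusted p under 0.05, Bpgm, which makes 2,3-bisphosphoglycerate, was lower in females. Its level was 48.7, 49.2, 61.2, 63.6 and 65.9 CPM in hAPOE3 males and 45.9, 44.5, 42.7, 55.9 and 60.3 CPM in hAPOE3 females. In hAPOE4 mice it was 50.5, 60.8, 57.2, 57.0 and 59.8 CPM in males and 44.5, 49.0, 55.0, 51.7 and 50.5 CPM in females. Each pair of groups overlapped, and in hAPOE3 mice of both sexes the values split into a lower and a higher range. Females minus males, averaged, the log2 difference was -0.20 (SE 0.08, edgeR adjusted p = 0.370). With the choroid plexus score as a covariate it was -0.26 (SE 0.08, edgeR adjusted p = 0.118). Bpgm is abundant in red cells, and the summed blood markers ran from 9.17 to 303 CPM over the mice. The part of blood in the Bpgm values was not tested.

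Eno3, the muscle enolase, was low throughout, at 6.83, 7.35, 8.41, 15.7 and 15.8 CPM in hAPOE3 males and 6.80, 6.39, 8.59, 6.10 and 13.1 CPM in hAPOE4 males. In females it was 7.95, 7.07, 8.48, 11.3 and 11.1 CPM with hAPOE3 and 7.47, 7.33, 6.77, 6.94 and 8.15 CPM with hAPOE4. Above 10 CPM were only hAPOE3 mice S157, S158, S147 and S148 and hAPOE4 male S178. The averaged genotype difference was -0.36 (log2, SE 0.17, edgeR adjusted p = 0.269), and 0.05 (SE 0.15) without the 5 hAPOE3 mice. Pgam2, the muscle mutase, was at 3.46 to 9.28 CPM.

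Lactate dehydrogenase is a tetramer whose Ldhb subunits favour lactate use and whose Ldha subunits favour lactate production. Ldhb (chromosome 6, 142490249 to 142507957) was at 290, 307, 451, 516 and 562 CPM in hAPOE3 males and 291, 285, 263, 385 and 388 CPM in hAPOE3 females. In hAPOE4 mice it was 324, 340, 437, 319 and 403 CPM in males and 340, 329, 379, 299 and 351 CPM in females. Males S156, S157 and S158 were the 3 highest of all 20 mice, followed by hAPOE4 male S176, and 2 of the 5 hAPOE3 males lay among the females. The log2 difference of females against males was -0.40 (SE 0.17, edgeR adjusted p = 0.805) in hAPOE3 mice and -0.10 (SE 0.17) in hAPOE4 mice, and the interaction was 0.30 (95% interval -0.19 to 0.79). In hAPOE3 mice it was -0.08 without S147, S148, S156, S157 and S158, and -0.18 with the balance of short and long transcripts, described further on, as a covariate. In hAPOE4 mice it was -0.03 without S176 and -0.25 with the choroid plexus score as a covariate. That covariate gave -0.52 (SE 0.14, edgeR adjusted p = 0.279) in hAPOE3 mice. Averaged over the genotypes the difference was -0.25 (SE 0.12, edgeR adjusted p = 0.487) without it and -0.39 (SE 0.11, adjusted p = 0.0829) with it. Ldha (chromosome 7, 46841475 to 46855627) averaged 195 ± 40.1, 179 ± 32.7, 191 ± 34.1 and 211 ± 20.4 CPM in the 4 groups.

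The promoters of this isoenzyme pair are shown because their ratio had the smallest p of any pair between the sexes. For each, the 250 bases before the first RefSeq start listed (GRCm38.p6) are given 5′ to 3′ on the gene's strand. Capitals mark every ACGTG on either strand. ACGTG is 1 form of the core of the hypoxia response element, and it also lies within the E-box CACGTG. The other form of the core, GCGTG, was not searched and is not marked. The Ldha window is chr7:46845554-46845803 on the plus strand and the Ldhb window chr6:142507958-142508207 on the minus strand.
Ldha: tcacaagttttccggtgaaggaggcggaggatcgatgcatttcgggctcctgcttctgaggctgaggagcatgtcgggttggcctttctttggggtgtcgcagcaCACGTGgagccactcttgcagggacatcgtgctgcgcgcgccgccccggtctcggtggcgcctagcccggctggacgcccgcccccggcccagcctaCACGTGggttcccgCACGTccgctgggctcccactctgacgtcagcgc
Ldhb: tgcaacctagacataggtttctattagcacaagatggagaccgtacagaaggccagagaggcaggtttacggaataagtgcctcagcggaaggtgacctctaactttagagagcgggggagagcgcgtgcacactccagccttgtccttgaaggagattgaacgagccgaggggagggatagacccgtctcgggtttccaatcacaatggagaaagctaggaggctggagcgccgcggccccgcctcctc
The Ldha window holds capitals in 3 places, of which 2 are the E-box, which reads the same on both strands and so counts in each direction for ACGTG. A second Ldha start is listed, and its window (chr7:46846832-46847081) holds neither string. Nor does the Ldhb window, which says only that these letters are absent there. Of the 28 members with a listed promoter, 11 (39.3%) held ACGTG before at least 1 start, against 18.5% of all 27025 genes listed, and 5 (17.9%) held CACGTG, against 6.86%. Besides Ldha, CACGTG stood before Pfkm, Pfkfb2, Pfkfb3 and Hif1a. Slc2a3 and Slc2a4 were not matched.

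Neuronal and glial or otherwise paired isoenzymes were compared by their log2 ratio in each mouse, which cancels the depth of a library. For 6 pairs and 6 comparisons, 36 two-sided exact permutation tests were made, and 5 gave an unadjusted p under 0.05. After adjustment 0 passed. In males and in females alone such a test cannot give a p below 0.00794.

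The ratio of Ldhb to Ldha was 0.87, 0.76, 0.83, 1.24 and 1.78 in hAPOE3 males and 0.65, 0.75, 1.79, 0.90 and 1.09 in hAPOE4 males. In females it was 0.72, 0.84, 0.68, 0.74 and 0.79 with hAPOE3 and 0.77, 0.64, 0.68, 0.70 and 0.65 with hAPOE4. Females were held in a narrow range with an SD of 0.06 and 0.05, while the male SD was 0.43 and 0.46, and the high males were S158, S176, S157 and S178. Females minus males, averaged over the genotypes, the ratio differed by -0.34 (exact permutation test within genotype, p = 0.00431, adjusted p = 0.155 over 36 tests). Leaving out S155 or S174, the adjusted p of this exact test was 0.0397 and 0.0204, and leaving out S158 or S176 the difference was -0.26 and -0.25. Without the 5 hAPOE3 mice it was -0.21 (exact permutation test, p = 0.0389, adjusted p = 0.28). Relative to the mean of all mice, oligodendrocyte markers stood at 1.09 in S158, 0.70 in S176, 0.26 in S157 and 0.10 in S178 (log2), and at 0.20 in S154, whose ratio was 0.87. The neuronal score was lowest of all mice in the same 4 high males, at -0.49 in S158, -0.42 in S176, -0.36 in S178 and -0.12 in S157. The part of either in the LDH ratio was not tested.

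Eno2, the neuron-specific enolase, was set against Eno1, the form of glia and most other cells. The mean log2 ratio was 0.04 ± 0.15 (SD, n = 5) and -0.06 ± 0.08 in hAPOE3 and hAPOE4 males, and 0.06 ± 0.10 and -0.08 ± 0.11 in the corresponding females. The ratio was lower with hAPOE4 in both sexes by less than the range of the mice, and the groups overlapped. Averaged over the sexes it differed by -0.12 (exact permutation test within sex, p = 0.0220, adjusted p = 0.214), and by -0.22 (adjusted p = 0.0306 by the same exact test) without the 5 hAPOE3 mice, a choice made after seeing the data. Eno1 itself differed by 0.11 (-0.07 to 0.29) and Eno2 by -0.01 (-0.14 to 0.13) between the genotypes.

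The ratio of Pfkm to Pfkp, averaged over the sexes, was higher in hAPOE4 mice by 0.22 (exact permutation test, p = 0.0168, adjusted p = 0.214), and by 0.10 without the 5 hAPOE3 mice (adjusted p = 0.686 by the same exact test). Slc2a3 over Slc2a1, the neuronal against the endothelial and glial transporter, was 0.16 ± 0.41, 0.33 ± 0.46, 0.49 ± 0.15 and 0.46 ± 0.28 in the 4 groups. Its lowest values were -0.42 in S158 and -0.36 in S176. Aldoa over Aldoc was near 1.00 in every group but hAPOE4 females, at 1.15 ± 0.06 (exact permutation test for genotype in females, p = 0.0714, adjusted p = 0.286). Hk1 over Hk2 was lower in hAPOE4 females than in hAPOE4 males by 0.19 (difference -0.19, exact permutation test, p = 0.0238, adjusted p = 0.214).

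**Figure D3:**
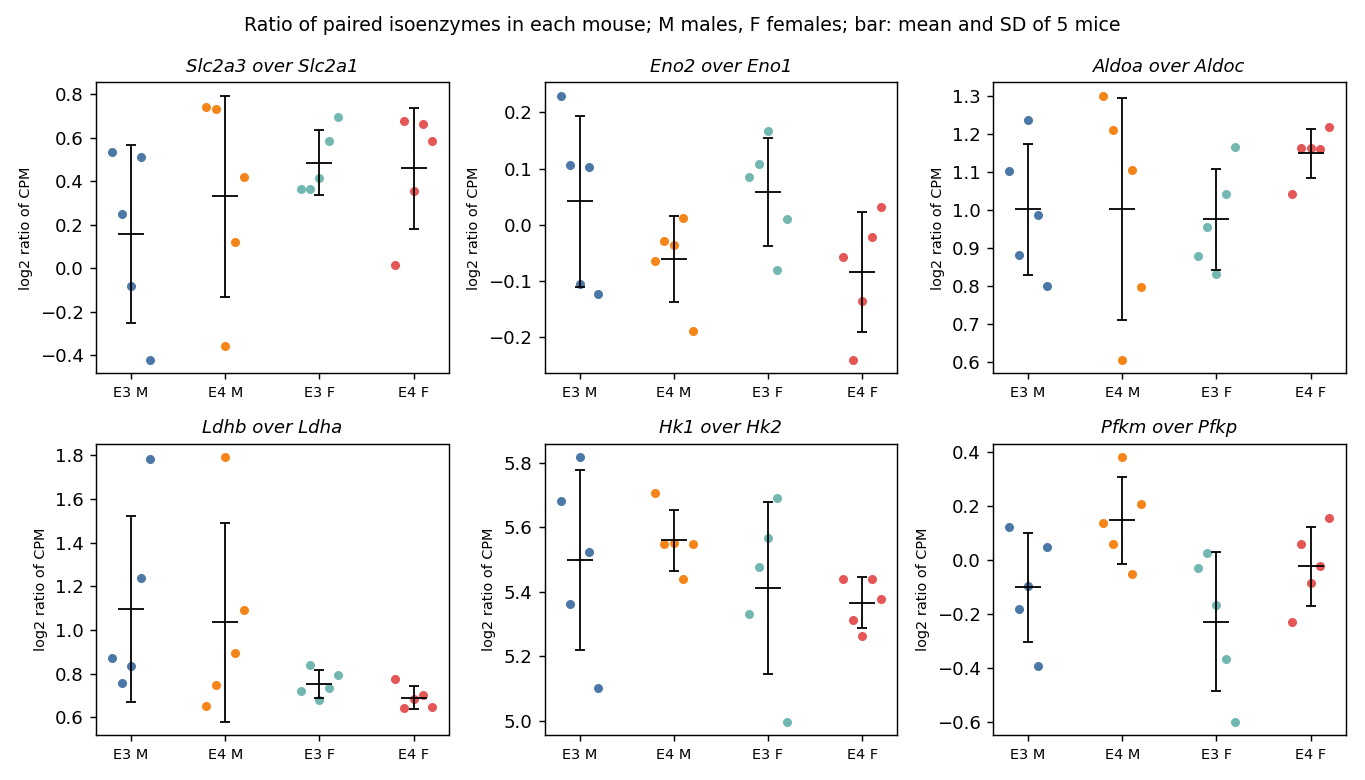
Log2 ratio of CPM (vertical axes, each on its own scale) of 6 pairs of isoenzymes or transporters in each mouse (points), with group mean and SD (bars, n = 5). E3 and E4 stand for hAPOE3 and hAPOE4, M and F for males and females. The ratio of Ldhb to Ldha has an SD of 0.43 and 0.46 in the male groups and of 0.06 and 0.05 in the female groups.

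The regulators differed in how much they varied. Txnip (chromosome 3, 96557957 to 96561883), which is induced by glucose and restrains its uptake, was at 29.4, 33.2, 38.4, 21.9 and 36.8 CPM in hAPOE3 males and 33.4, 42.1, 56.7, 40.6 and 34.9 CPM in hAPOE4 males. In females it was 44.5, 24.0, 34.5, 21.6 and 24.9 CPM with hAPOE3 and 57.6, 40.8, 66.7, 32.9 and 28.7 CPM with hAPOE4. The 3 highest mice, S166, S164 and S176, were all hAPOE4, and the 2 lowest, S147 and S157, were hAPOE3, with overlap between them. The log2 fold change for hAPOE4 was 0.38 (SE 0.23) in males, 0.60 (SE 0.23) in females and 0.49 (SE 0.17, edgeR adjusted p = 0.120) averaged over the sexes. Without hAPOE3 female S144, the averaged value was 0.58 and its edgeR adjusted p 0.0458. Choroid plexus scores were also high in S166, S164, S176 and S144, at 2.85, 2.27, 1.90 and 2.12 above the mean (log2), but also in S165 (2.82). With that score as a covariate the averaged difference was 0.43 (SE 0.16, edgeR adjusted p = 0.132). Hif1a, the oxygen-regulated activator of glycolytic genes, differed by 0.04 (-0.16 to 0.24) between the genotypes.

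Most of the variance of the median member lay between mice of a group, and members varied together in blocks. The 6 mice with the highest Gapdh were S156, S158, S147, S178, S157 and S168. At least 4 of these 6 were again among the 6 highest mice for 11 of the 15 members with the shorter longest transcript (under 2999.5 bases), and for 2 of the 14 longer ones besides Gapdh itself. They gave at least 3 of the 6 lowest mice for 2 shorter and 7 longer members. Aldoa, Tpi1, Pgam1, Aldoc, Eno2 and Gpi1 had 5 of the 6 in common with Gapdh, whereas Hif1a and Pfkfb3 had 5 of these 6 mice among their lowest. In GRCm38 annotation the longest Gapdh transcript has 3289 bases, so the longest transcript need not be the one expressed.

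The same mice stood apart in the balance of short and long transcripts. From 884 genes with longest transcripts under 1500 bases and 2952 genes over 5000 bases, members left out, the median deviation of short minus long was 0.54 in S156, 0.51 in S157, 0.60 in S158, 0.49 in S147 and 0.45 in S148. It was 0.26 in S178 and between -0.46 and 0.01 in the other 14 mice. Those 5 mice were hAPOE3 males and females, so each hAPOE3 group was split, and hAPOE4 groups were closer together. The SD was larger in hAPOE3 than in hAPOE4 mice for 18 of 30 members in males and 22 of 30 in females (73.3%), where it was so for 55.0% and 65.6% of all genes.

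**Figure D4:**
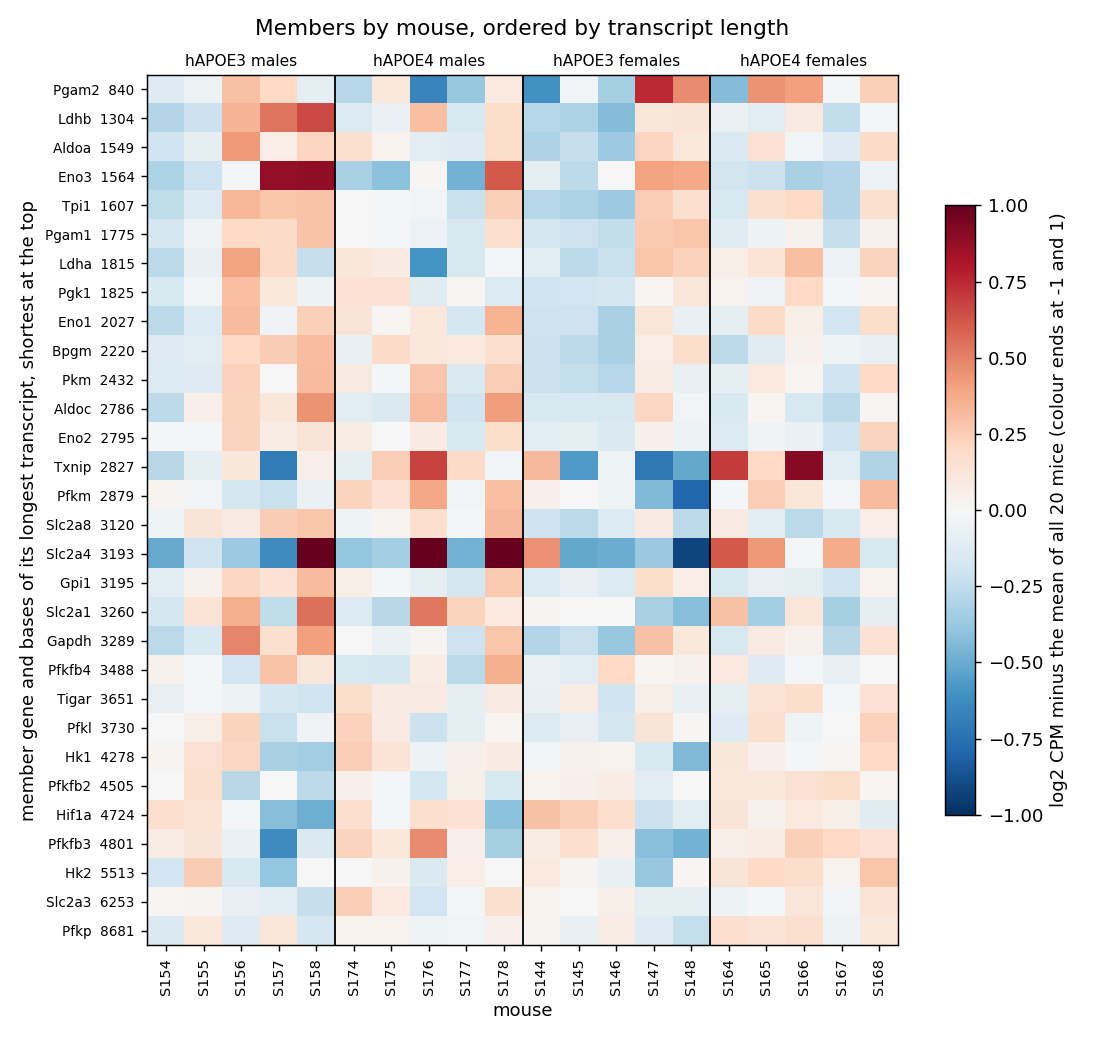
Log2 CPM of each member minus its mean over all 20 mice (colour, ending at -1 and 1) by mouse (columns, 5 per group) and member (rows, the shortest longest transcript at the top, with its length in bases). Most short members are high together in S156, S157, S158, S147 and S148, and Hif1a and Pfkfb3 are low in most of the same mice.

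When that balance was added to the fit as a covariate, a choice made with the data in view, 26 members had positive and 4 negative genotype differences averaged over the sexes, with a median of 0.09 against 0.02 for all genes, and 0 members were called by edgeR, where 2.74% of all genes were. At an unadjusted p under 0.05 were 8 members, and 18.9% of all genes. Eno1 led beside Pfkm, at 0.20 (SE 0.06, edgeR adjusted p = 0.0814). Without the 5 mice, also chosen after seeing the data, 27 members were positive with a median of 0.11 against 0.01 for all genes, and again 0 were called. All 5 are hAPOE3 mice, and most short members were high in them. Leaving them out raises the hAPOE4 minus hAPOE3 difference of those members, so their positive sign follows in part from the choice. In the fit without these mice 0.744% of all genes were called and 15.9% had an unadjusted p under 0.05. At that unadjusted level were 9 of the 30 members, all higher in hAPOE4 mice. They were Pfkm, Aldoa, Tpi1, Gapdh, Pgk1, Bpgm, Eno1, Pkm and Ldhb. Among them Ldhb was at 0.28 (SE 0.08, edgeR adjusted p = 0.130) and Gapdh at 0.24 (SE 0.09, adjusted p = 0.205). Without these mice the averaged genotype difference of Hk1 was 0.03, of Gpi1 0.03, of Pfkfb2 -0.04, of Pgam1 0.12, of Eno1 0.28, of Eno2 0.06 and of Hif1a -0.16, each moved by more than 1.5 times or across 0 from its value in all mice. That of Pfkp in females was 0.10.

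**Figure D5:**
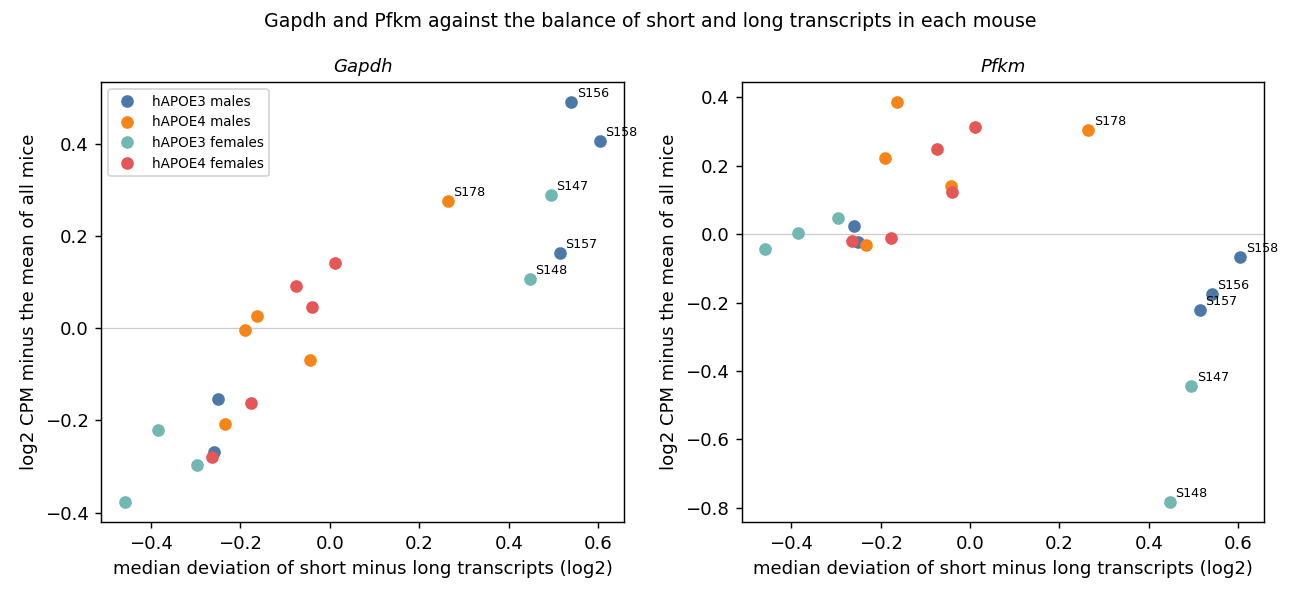
Log2 CPM of Gapdh (left) and Pfkm (right) minus the mean of all mice (vertical axes) against the median deviation of short minus long transcripts in that mouse (horizontal axis, log2), for 20 mice coloured by group. The 5 hAPOE3 mice labelled on the right, from 0.45 to 0.60, have high Gapdh and low Pfkm, while hAPOE4 male S178 at 0.26 has both above the mean.

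Neighbouring pathways, taken as whole lists, gave 1 call in all. It fell in the genotype comparison averaged over the sexes, where 2.45% of all genes were called. The testis form of glyceraldehyde phosphate dehydrogenase, Gapdhs (chromosome 7, 30729775 to 30743681, 11.0 Mb from Apoe), was between 1.27 and 3.90 CPM in hAPOE3 mice and between 3.76 and 4.59 CPM in hAPOE4 mice. Only hAPOE3 male S155 reached into the hAPOE4 range. The averaged log2 difference of Gapdhs was 0.86 (SE 0.17, edgeR adjusted p = 0.0102), and 0.45 (edgeR adjusted p = 0.0829) without the 5 hAPOE3 mice. Antisense genes overlap Gapdhs and the strand of the counts was not stated, so its reads cannot be told from theirs.

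Of 15 tested other isoenzymes and transporters, Gapdhs was the single call, and 0 were called of 8 genes of the pentose phosphate pathway, 15 of glycogen metabolism, 8 of the glycerol phosphate shuttle and gluconeogenesis, 18 of the hypoxia inducible factor pathway and 7 of glucose sensing by ChREBP and MondoA. Their leading genes were Tkt (transketolase) at -0.23 for sex, Phka1 (a phosphorylase kinase subunit) at 0.15, Pcx (pyruvate carboxylase) at 0.25 and Txn1 (thioredoxin, bound by Txnip) at -0.18 for genotype averaged over the sexes, and Ankrd37 (a target of hypoxia inducible factor) at -0.52 for genotype in males. None of these 5 had an edgeR adjusted p under 0.111.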

How the data were processed

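The authors isolated RNA from frozen hippocampus, prepared polyA libraries, sequenced paired ends, quantified transcripts with Salmon 0.91 against the mouse transcriptome and summed them per gene with tximport. The deposited main table holds these estimated counts, already whole numbers. A second deposited table holds a normalized signal, in which the authors divided each count by a DESeq2 factor of its gene and mouse; it served only for alternatives. Of the columns 0 were left out.

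The tests on estimated counts used R 4.3.3 and edgeR 4.0.16, with TMM scaling, filterByExpr by group, glmQLFit and glmQLFTest with one mean per group over all 20 mice, and Benjamini-Hochberg adjustment over 21724 genes. CPM are TMM-normalized, and log2 values carry a prior count of 2. Ratios of paired genes were tested by exact permutation of mice, within the other factor where a comparison was averaged. The edgeR and permutation scripts were tested on simulated data. Gene lengths and positions come from GENCODE M21 (GRCm38), promoters from RefSeq, and choroid plexus or length scores are mean or median deviations in log2 CPM.

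The 8 members given by mouse were those with the smallest unadjusted p over 7 comparisons, beside the 12 genes of the 6 pairs. In each context list called genes, or otherwise the one with the smallest p, were named. Members and lists were chosen with earlier results of these data known. Labels do not say whether each mouse is an independent litter, so p-values measure the spread between these mice. At this depth counting noise was small beside that spread for members with many counts, but not for low genes such as Hk2, Ankrd37 and Gapdhs in hAPOE4 males. Alternatives covered the normalization, filter, test, groups in the fit, mitochondrial genes, covariates, transcript length, prior count and each mouse left out in turn.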

Additional observations from a re-analysis of the deposited data

Results flagged for a closer look

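The 30 members and 6 ratios were examined in each of the 4 groups of 5 mice for a mouse whose gap to its nearest neighbour exceeded 0.71 of the range. Only 3 showed one, where chance gives about 7.2. Slc2a4 in hAPOE3 males had a gap of 0.749, since mouse S158 stood at 2.79 CPM and the others between 0.833 and 1.13 CPM. Pfkp in hAPOE4 females had a gap of 0.731, with S167 at 271 CPM and the others between 302 and 315 CPM. Pgk1 in hAPOE4 females had a gap of 0.711, with S166 at 467 CPM and the others between 396 and 416 CPM.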

How the results depend on the processing

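Under 28 or 29 alternatives per comparison the number of members called stayed at 0 in 6 of the 7 comparisons. For hAPOE4 against hAPOE3 averaged over the sexes it was 1 with DESeq2's Wald test (Pfkm), and from 0 to 2 when each mouse was left out in turn, the 2 being Pfkm and Txnip without hAPOE3 female S144. Of all genes 2.45% were called in the main fit and 5% with DESeq2. That share was not counted for fits without 1 mouse, so the 2 cannot be set against it. For ratios of paired genes the number of calls was 0 with a prior count of 0.5 or the normalized counts, from 0 to 1 when each mouse was left out, and 1 without the 5 hAPOE3 mice (Eno2 over Eno1). Over all alternatives 21 uncalled fold changes of the 8 members given by mouse changed sign while moving by at least 1 SE, mostly those of Ldhb, Bpgm and Eno3 without those 5 mice or with the transcript length covariate, both chosen after seeing the data. The cause was not tested. Normalization factors of the deposited table varied 2.78-fold between mice for Hk2, and there the ratio of Hk1 to Hk2 differed by 0.23 between female genotypes, where the counts gave -0.05. Levels per kilobase moved by more than their SD for 19 of 30 members with the longest transcript. No paired analysis was possible because replicate numbers only name the mice. Intervals of low members were wide: for Slc2a4 the genotype difference in females ran from -0.24 to 1.42 (log2).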
